A study of Mus musculus with 2 samples.

Results

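The genes described here are 33 immediate early and dissociation stress genes of the mouse, followed across all cell types of the adult vomeronasal organ (VNO). They are a list of symbols with no threshold on measured values, and each of the 33 had a single row among the 32285 genes of the count table and at least 1 molecule in the cells kept. By role they are 9 AP-1 and related bZIP factors (Fos, Fosb, Fosl1, Fosl2, Jun, Junb, Jund, Atf3 and Maff), 6 zinc finger factors (Egr1, Egr2, Egr3, Klf2, Klf4 and Klf6), 2 nuclear receptors (Nr4a1 and Nr4a2), 10 feedback regulators and growth arrest genes (Dusp1, Zfp36, Socs3, Nfkbia, Ier2, Ier3, Ier5, Btg1, Btg2 and Gadd45b), 3 heat shock genes (Hspa1a, Hspa1b and Dnajb1) and 3 others (Rhob, Per1 and Arc).

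Immediate early genes are switched on soon after a stimulus by factors that are already in the cell, and many of them encode transcription factors or proteins that shut the same signal down again. Fos and Jun proteins pair to form AP-1, Egr and Klf proteins bind DNA through zinc fingers, Dusp1 is a phosphatase that ends MAP kinase signalling, Zfp36 speeds the decay of AU-rich mRNAs, Nfkbia holds NF-kB in the cytoplasm, and Hspa1a and Hspa1b are inducible chaperones. In the VNO, Egr1 and Fos are used as marks of vomeronasal sensory neurons (VSNs) that have met a pheromone, Btg2 is known from precursors about to form neurons, and the same genes are also known to be induced while a tissue is being taken apart with warm enzymes.

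Whole VNO of wild-type C57BL/6J males at postnatal day 60 was profiled by single cell RNA-sequencing, with no treatment and no second condition. The tissue was dissociated with papain and collagenase at body temperature, and the cells were frozen and thawed before capture, so every level below is that of a cell after these steps and no undissociated tissue was analysed here. The 2 libraries came from 5 mice in total, and no source used here gives how the mice were divided between them, so p-values measure the spread between captures and may not cover the spread between mice. Counts are numbers of unique molecular identifiers (UMIs), the tags that tell captured mRNA molecules apart, and CPM, the usual depth-scaled unit, sets the UMIs of a gene against the total UMIs of its library and class.

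Of 24084 barcodes, 18705 had 200 to 9000 genes and at most 10% of UMIs from mitochondrial genes. They fell into 10592 cells with at most 5% (the limit of the study) and 8113 cells with over 5% to 10%, which that limit leaves out. Cells were clustered without the 33 genes and without other stress genes, and 22 classes were named from marker genes, of which 19 had at least 20 cells with at most 5% in both libraries and 15 had at least 20 cells in each band and library. In 6 further clusters the 4929 cells stayed without a class, and 1 of those clusters held 669 of its 671 cells from library 1. Among the kept cells, 18 barcode sequences occurred in both libraries.

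The sequences that respond to such stimuli are short, and those found close to the start sites of the members are shown here. RefSeq promoters of GRCm38.p6, each 300 bases long, were used for 28 of the 33 members (36 promoters). Only the part before the start site was searched, on both strands, so matches after the start site are not counted. The 32851 promoters called all promoters below were searched in the same way. Egr1 and the other genes of its chromosome were left out of both sets. The cyclic AMP response element TGACGTCA lay in the promoters of 3 members and in 1.55% of all promoters, and its core TGACGT, which is counted again in each full element, lay in 8 members (Fos, Atf3, Maff, Egr2, Dusp1, Btg1, Btg2 and Per1) and in 6.47% of all. The CArG box, the site bound by serum response factor, was found in Egr2 and Zfp36 and in 1.47% of all promoters. The AP-1 site TGANTCA was in no member promoter and in 6.75% of all, the heat shock element of 3 units in no member and 0.466% of all, and the shorter heat shock element of 2 units in Egr2 alone and in 7.17% of all. The TATA box TATAAA was in 4 members (Fos, Nr4a2, Btg1 and Gadd45b) and in 12.4% of all promoters. The following 30 bases around 1 match each are written 5′ to 3′ on the strand of the gene with the match in capitals, and a match describes letters, not binding.
Fos, core, chr12:85473812-85473841, plus strand: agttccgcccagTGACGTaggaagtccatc
Btg2, full element, chr1:134079303-134079332, minus strand: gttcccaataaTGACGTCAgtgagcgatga
Dusp1, full element, chr17:26508597-26508626, minus strand: ggtagggcgggTGACGTCAccgcccggtca
Maff, full element, chr15:79347480-79347509, plus strand: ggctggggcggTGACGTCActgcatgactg
Egr2, CArG box, chr10:67537787-67537816, plus strand: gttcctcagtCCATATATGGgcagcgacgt
Zfp36, CArG box, chr7:28379267-28379296, minus strand: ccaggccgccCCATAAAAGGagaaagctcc

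Basal-like cells, the keratinised stem cell layer marked by Krt5 and Krt14, held the most of these mRNAs, and VSN-like cells held the least. In cells with at most 5% mitochondrial UMIs, the 33 genes together made up 5.74% of all UMIs of basal-like cells in library 1 and 5.78% in library 2. The share was 0.368% and 0.381% in mature apical VSN-like cells, and 0.319% and 0.378% in mature basal VSN-like cells. Immature VSN-like cells gave 0.520% and 0.554%. The libraries differed far less than these classes did, and the 2 mature classes overlapped.

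Ensheathing-like glia (4.02% and 4.19%) and neutrophil-like cells (3.96% and 4.10%) came next, and their ranges overlapped. The Krt13 cluster (3.46% and 3.60%), the Fezf2 cluster (3.41% and 3.45%) and endothelial-like cells (3.29% and 3.65%) followed, where the last overlapped both others. The clusters called by their leading genes are epithelial cells, or for Nkg7 lymphoid cells, to which no type name was given. Macrophage-like cells gave 2.84% and 3.05%, fibroblast-like cells 2.83% and 2.88%, dendritic-like cells 2.53% and 2.91%, and T-like cells 2.92% and 2.71%, all of which overlapped. Gland-like cells, at 0.935% and 0.999%, were the lowest class outside the neurons. Neural precursor-like cells lay at 1.52% and 2.38%, the widest gap between libraries among classes with over 100 cells.

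**Figure D1:**
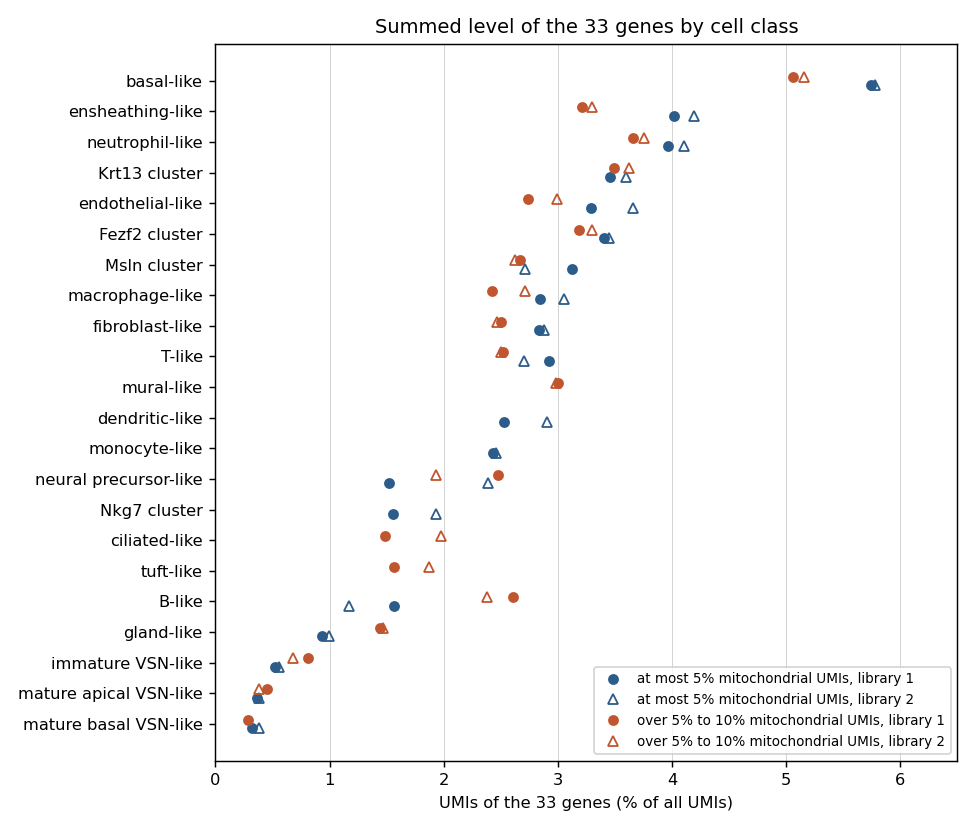
Share of all UMIs (percent, x axis) that came from the 33 genes in each class of cells (y axis), with 1 point per library and mitochondrial band that held at least 20 cells, circles for library 1 and triangles for library 2. Basal-like cells lie at 5.74% and 5.78% in the low band, and the VSN-like classes lie between 0.319% and 0.554%.

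A few genes carried most of the sum, and which ones differed by class. Fos, Atf3, Junb, Jun and Jund made 57.2% of the member UMIs of basal-like cells. In mature apical VSN-like cells Jund alone made 40.8% and Jun a further 19.5%. In neutrophil-like cells the first 5 were Junb, Nfkbia, Dusp1, Gadd45b and Jund, with 42.2% together. Of the 33 members, 11 had their highest level in basal-like cells, 9 in neutrophil-like cells and 5 in the Fezf2 cluster, and 0 in a neuronal class. The lowest level fell in a VSN-like class for 28 members. For the 31 members with a UMI in every class, the highest class stood 4.30-fold (Jund) to 196-fold (Fosl2) above the lowest, with a median of 60.3-fold. The order of the 19 classes was alike in the 2 libraries, with Spearman coefficients between 0.854 and 0.995 that describe classes sharing a library.

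AP-1 genes were highest in basal-like cells except for Fosl2 and Maff. Fos stood at 8555 and 7677 CPM in basal-like cells and 8324 and 7721 CPM in ensheathing-like cells, and these classes overlapped. It was low in mature apical VSN-like cells, at 313 and 341 CPM, and in mature basal VSN-like cells, at 292 and 364 CPM, and these 2 classes overlapped. Jun reached 5760 and 5885 CPM in basal-like cells and 5588 and 5999 CPM in ensheathing-like cells, and was lowest in mature basal VSN-like cells with 486 and 573 CPM. Thus the same pair of classes led for Fos and for its partner Jun.

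Atf3, a factor of the same protein family that is induced by many stresses, stood at 8111 and 8018 CPM in basal-like cells. The Fezf2 cluster followed with 5430 and 5417 CPM, and mature apical VSN-like cells were lowest with 117 and 119 CPM. Jund, which is known to be made in resting cells as well, varied least of all members. Its level was 4615 and 4363 CPM in basal-like cells, 1558 and 1475 CPM in mature apical VSN-like cells and 1098 and 980 CPM in gland-like cells, where it was lowest. Fosl2 had its highest level in neutrophil-like cells, with 358 and 424 CPM, against 1.72 and 2.35 CPM in mature apical VSN-like cells. Fosl1 was a low gene, at 64.7 and 62.1 CPM in basal-like cells, and had 0 UMIs in the Nkg7 cluster.

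Egr1 was highest in ensheathing-like cells, with 1181 and 1423 CPM, followed by basal-like cells with 906 and 1133 CPM, and it was lowest in mature apical VSN-like cells, with 51.2 and 59.3 CPM. Egr2 (221 and 279 CPM) and Egr3 (202 and 288 CPM) were highest in the Fezf2 cluster and next in neutrophil-like cells. Klf4, a factor of epithelial and reprogrammed cells, had 1068 and 1323 CPM in basal-like cells and 9.43 and 11.5 CPM in mature apical VSN-like cells. Klf2, which is known from endothelium under flow and from resting lymphocytes, had 2676 and 2745 CPM in endothelial-like cells, and monocyte-like cells were next with 1999 and 1959 CPM. Nr4a1 was highest in basal-like cells (739 and 903 CPM) and Nr4a2 in the Nkg7 cluster (349 and 208 CPM).

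Feedback genes leaned to neutrophil-like cells. Nfkbia stood there at 3659 and 3789 CPM, Dusp1 at 2694 and 3064 CPM, Gadd45b at 2729 and 3023 CPM and Btg1, an antiproliferative gene of resting cells, at 2305 and 3165 CPM. The next class reached 2443 and 1938 CPM for Nfkbia (dendritic-like), 1604 and 1610 CPM for Dusp1 (macrophage-like) and 855 and 1047 CPM for Gadd45b (T-like), all below the neutrophil-like cells in both libraries. Btg2 had 2801 and 2809 CPM in the Fezf2 cluster, 2680 and 2843 CPM in basal-like cells and 2408 and 2457 CPM in neutrophil-like cells, and the first 2 of these overlapped. Socs3, a brake on cytokine signalling, was highest in ensheathing-like cells (1656 and 1715 CPM) and lowest in gland-like cells (19.4 and 28.7 CPM).

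The heat shock genes did not follow one pattern. Hspa1a had 1949 and 2290 CPM in macrophage-like cells, 1162 and 1514 CPM in fibroblast-like cells and 30.8 and 69.6 CPM in immature VSN-like cells, where it was lowest. In neutrophil-like cells, which held so much of the feedback genes, Hspa1a stood at 131 and 174 CPM. Its neighbour and near-identical copy Hspa1b was highest in fibroblast-like cells, with 801 and 1228 CPM, and since reads of the 2 copies can be exchanged, their split is uncertain. Dnajb1, a partner of these chaperones, was instead highest in basal-like cells with 2227 and 2224 CPM. Arc, a gene of active synapses, had 506 and 618 CPM in the Fezf2 cluster, 209 and 271 CPM in basal-like cells and 7.93 and 11.7 CPM in mature apical VSN-like cells. It had 0 UMIs in monocyte-like cells, where 3 of the 573199 UMIs would be 5.23 CPM.

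**Figure D2:**
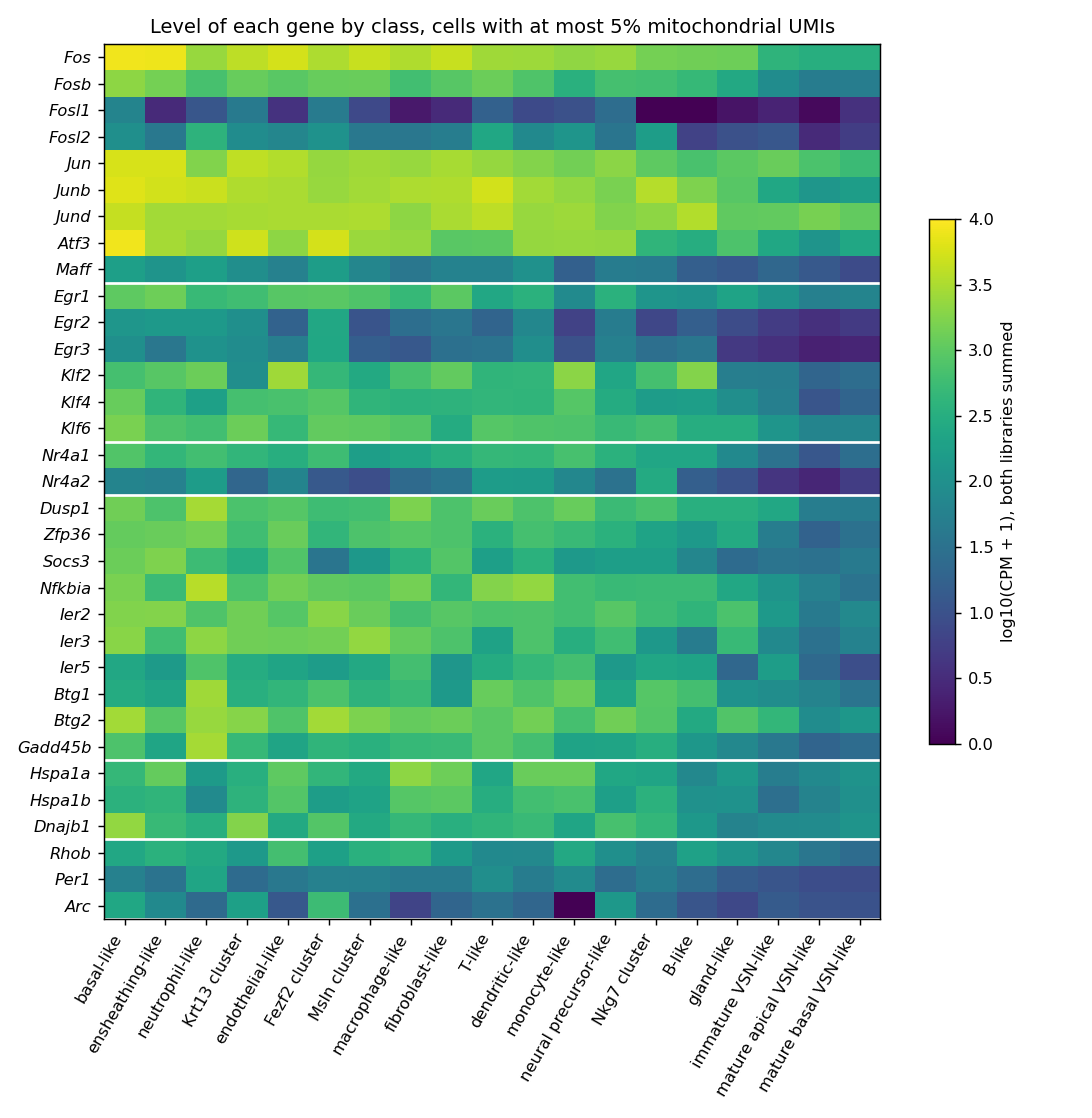
Level of each member (rows, by role) in each of 19 classes (columns) as log10 of CPM + 1, over both libraries and cells with at most 5% mitochondrial UMIs. Bright cells are high and dark cells low, the VSN-like columns on the right are the darkest for 28 of 33 rows, and the neutrophil-like column is bright for Nfkbia, Dusp1, Gadd45b and Btg1 and dark for Hspa1a and Hspa1b.

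Each class was then compared with the mean of the 18 others in an edgeR quasi-likelihood fit of summed UMIs over 18061 genes, where an adjusted p (Benjamini-Hochberg) under 0.05 was called. Of 627 pairs of member and class, 274 were higher and 151 lower. In basal-like cells 32 of 33 members were higher and 0 lower, where 25.5% of all genes were higher and 7.94% lower, and the member that did not pass was Btg1. The log2 difference there was 2.09 ± 0.11 (SE) for Fos (adjusted p = 3.43e-17), 1.82 ± 0.14 for Jun, 1.86 ± 0.12 for Egr1 and 0.61 ± 0.16 for Hspa1a. Arc and Fosl1 had 0 UMIs in a class that enters the mean of the others, so they are counted but their fitted differences from that mean are not given. The median over the members was 1.86, and over all genes 0.19.

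In mature apical VSN-like cells 0 members were higher and 31 lower, against 35.7% of all genes higher and 11.7% lower. The counts were again 0 and 31 in mature basal VSN-like cells (27.1% and 11.2% of all genes) and in immature VSN-like cells (34.9% and 11.3%). In all of these the 2 members not called were Fosl1 and Arc, which had 0 UMIs in another class, so that this contrast cannot be fitted well for them. The largest differences named for mature apical VSN-like cells were −5.07 ± 0.23 for Klf4, −4.83 ± 0.33 for Zfp36 and −4.81 ± 0.96 for Fosl2.

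Other classes split the list. Neutrophil-like cells had 26 members higher and 2 lower (all genes 17.8% and 7.77%), led by Gadd45b (3.93 ± 0.08), Fosl2 (3.62 ± 0.18) and Btg1 (3.34 ± 0.16), and the 2 that were lower were Hspa1a (−0.99 ± 0.21) and Hspa1b. Macrophage-like cells had 21 higher and 0 lower (21.2% and 8.8%), led by Hspa1a (3.01 ± 0.13) and Ier5 (2.19 ± 0.11). Gland-like cells had 7 higher and 10 lower (22.4% and 9.41%). B-like cells had 3 higher and 7 lower (3.57% and 1.01%), with Klf2 at 2.71 ± 0.17 and Ier3, an early gene of cell survival, at −3.18 ± 0.52.

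The Fezf2 cluster had 20 higher and 3 lower (23.7% and 6.27%), with Egr2 at 3.43 ± 0.15, and the Krt13 cluster 25 higher and 1 lower (16.8% and 4.66%). Dendritic-like cells had 25 higher and 1 lower (15% and 6.29%), endothelial-like cells 19 and 2 (24.7% and 7.67%), ensheathing-like cells 18 and 1 (16.1% and 2.98%) and fibroblast-like cells 18 and 4 (29% and 6.54%). The Msln cluster had 17 and 0 (9.88% and 2.31%), T-like cells 15 and 4 (10.8% and 4.16%), monocyte-like cells 14 and 4 (10.5% and 4.87%), neural precursor-like cells 9 and 10 (25.6% and 6.36%) and the Nkg7 cluster 5 and 9 (6.77% and 2.31%). In endothelial-like cells Klf2 led with 2.94 ± 0.13, in ensheathing-like cells Socs3 with 3.18 ± 0.21 and in fibroblast-like cells Socs3 with 2.29 ± 0.20.

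Within the neuronal lineage the members fell from precursors to neurons. The contrast of neural precursor-like cells with the mean of the 2 mature VSN-like classes, in the same fit, called 33 of 33 members higher and 0 lower, where 28.3% of all genes were higher and 23.3% lower. The median log2 difference was 3.44 over the members and 0.04 over all genes. Egr3 (5.15 ± 0.59), Fosl1 (4.80 ± 0.47), Klf4 (4.42 ± 0.20) and Nr4a1 (4.36 ± 0.23) differed most, and Jund (0.47 ± 0.16, adjusted p = 0.0165) least. Btg2 stood at 1098 and 1718 CPM in precursor-like, 417 and 472 CPM in immature VSN-like and 82.5 and 91.3 CPM in mature apical VSN-like cells, so no class overlapped another. Its difference between precursor-like and mature cells was 3.73 ± 0.17 (adjusted p = 4.94e-19).

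Fos differed by 2.91 ± 0.16 in that contrast, Egr1 by 2.63 ± 0.18, Arc by 3.85 ± 0.32, Jun by 1.71 ± 0.19 and Hspa1a by 1.37 ± 0.21. The 33 genes were all higher in each library too. With the library as a block all 33 were called, and after thinning each cell to 1500 UMIs 29 were.

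**Figure D3:**
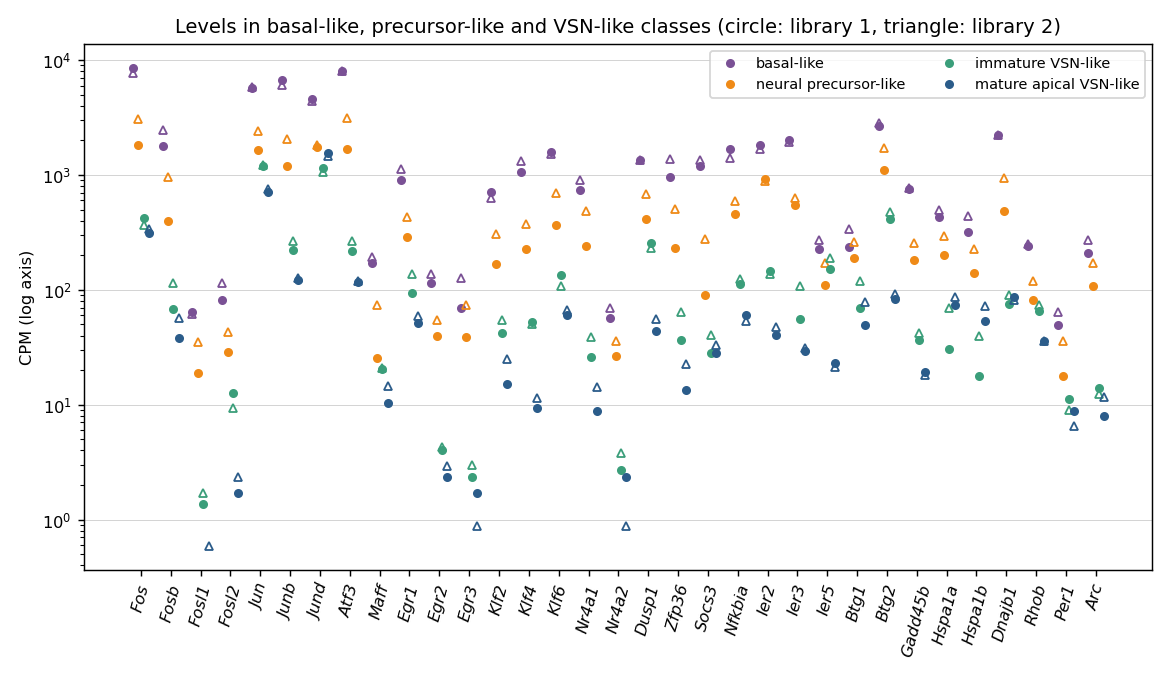
Level in CPM (log axis) of each member in basal-like, neural precursor-like, immature VSN-like and mature apical VSN-like cells with at most 5% mitochondrial UMIs, circles for library 1 and triangles for library 2, where a level of 0 is not drawn. Btg2 goes from 1098 and 1718 CPM in precursor-like to 82.5 and 91.3 CPM in mature apical VSN-like cells, and the classes lie closest together for Jund.

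Markers of basal cells moved with the summed level of the members in the precursor-like class. Of its 170 cells, 99 had at least 1 UMI of the basal markers Krt5, Krt14, Trp63, Krt15 or Krt17. Those cells gave 1.96% of UMIs from the members in library 1 and 2.74% in library 2, while the 71 cells with no such UMI gave 0.789% and 1.06%. The cells without a basal marker UMI were also shallower, at a median of 13324 against 19647 UMIs. When neuronal cells with a basal marker UMI were left out of the fit, an alternative chosen after the data had been seen, 29 of the 33 members were still higher in precursor-like than in mature cells, with a median of 2.62. The 4 not called were Fosl1 (2.49), Per1 (1.07), Socs3 (0.40) and Jund (0.08), and the difference of Egr1 went from 2.63 to 0.89 ± 0.26. Not every member fell in this way, since Btg2 went from 3.73 to 3.69 ± 0.16 and Hspa1a from 1.37 to 2.01 ± 0.37. The Btg2 level of the precursor-like cells without a basal marker UMI was 796 CPM over both libraries, and that of Fos 838 CPM. Hspa1a stood at 354 CPM in those cells and at 195 CPM in cells with a basal marker UMI.

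RNA set free by broken cells can enter any droplet, so the level of basal cell markers in neurons gives a scale for it. In mature apical VSN-like cells the 5 basal markers stood at 0.119% to 0.341% of their basal-like level, with a median of 0.194%. The 33 members stood at 0.463% (Fosl1) to 33.8% (Jund) of their basal-like level, with a median of 3.15%. In immature VSN-like cells the markers stood at 1.59% to 2.91% and the members at 2.41% to 68.9%, with medians of 1.97% and 7.25%. In mature basal VSN-like cells the markers stood at 0.127% to 3.16% and the members at 1.56% to 26.7%, with medians of 1.73% and 3.90%, and members such as Klf4 (1.56%), Egr3 (1.66%), Nfkbia (2.14%) and Fosb (2.36%) lay below the Krt17 value of 3.16%. The ranges of markers and members overlapped in immature and mature basal VSN-like cells and not in mature apical VSN-like cells, where the Fosl1 value rested on 0 and 0.587 CPM. This scale covers RNA of basal cells only, and the part of RNA from other classes was not tested.

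Most cells of most classes held several members at once. After thinning to 1500 UMIs, the median cell had UMIs of 19 members in basal-like cells, 17 in the Fezf2 cluster, 16 in neutrophil-like, 9 in precursor-like, 4 in immature VSN-like, 3 in mature apical VSN-like and 2 in mature basal VSN-like cells. Precursor-like cells were the most spread, with quartiles of 5 and 15 members. Fos had a UMI in 99.3% of thinned basal-like cells (99.9% unthinned) and in 32.8% of thinned mature apical VSN-like cells, with a 95% exact binomial interval of 29% to 36.7% that covers counting error only (82.9% unthinned). The 5 basal markers, which neurons should lack, had a UMI in 0% (Krt5) to 1.00% (Krt17) of those thinned mature apical VSN-like cells and in 0.167% (Trp63) to 12.4% (Krt17) of them unthinned.

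Egr1 had a UMI in 6.86% of thinned mature apical VSN-like cells (exact interval 4.96% to 9.19%), 12.5% of immature VSN-like, 34% of precursor-like and 72.9% of basal-like cells. Arc had a UMI in 47.4% of the thinned Fezf2 cluster and in 0.836% of thinned mature apical VSN-like cells, against 1.00% for Krt17 in the latter. Set against its basal-like level, Arc stood at 4.10% in mature apical VSN-like cells and Krt17 at 0.341%.

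The second comparison set cells with over 5% to 10% mitochondrial UMIs against those with at most 5%, class by class, since the filter of the study removes the former. Summed over all kept cells the members made 2.62% and 2.80% of UMIs in the low band and 2.52% and 2.58% in the high band. Averaged over 15 classes with equal weight, 4 members were higher in the high band and 0 lower, where 0.979% of 18702 genes were higher and 0.872% lower. At an unadjusted p under 0.05 the counts were 10 and 1, and DESeq2 called 6 higher and 0 lower. These were Egr2 (log2 difference 0.57 ± 0.15, adjusted p = 0.0305), Egr1 (0.32 ± 0.07, adjusted p = 0.00279), Zfp36 (0.30 ± 0.08, adjusted p = 0.0367) and Klf4 (0.26 ± 0.07, adjusted p = 0.0378), each higher in both libraries. The median was 0.07 over the members and −0.05 over all genes.

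The other members gave no call. Fos was at −0.09 ± 0.06, Jun at 0.03 ± 0.07, Btg2 at 0.13 ± 0.05, Hspa1a at −0.03 ± 0.08 and Arc at 0.55 ± 0.29, and Fosl1 had 0 UMIs in some sums and no usable error. Between narrower bands, the summed share fell in basal-like cells from 5.76% (over 2.5% to 5% mitochondrial UMIs) to 5.18% (over 5% to 7.5%) and 4.83% (over 7.5% to 10%), and in ensheathing-like cells from 4.05% to 3.53% and 2.40%. Gland-like cells went the other way, from 0.750% at 0 to 2.5% to 1.34% and then 1.42% at over 5% to 7.5%. These shares are levels over both libraries and have no test.

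The 4 calls depended on scaling, on the bands, on depth and on cells with basal markers. With default TMM factors over all genes, an alternative chosen after the data had been seen, 0 members were higher and 7 lower. The scaling of the main fit was not set in advance either, and the direction of the calls turned on this choice. Between the bands of over 2.5% to 5% and over 5% to 7.5% no member was called. Without neuronal cells that held a basal marker UMI, also chosen after the data had been seen, Egr1 alone was still called (0.26 ± 0.07, adjusted p = 0.0376), with Zfp36 at 0.29 ± 0.09, Egr2 at 0.50 ± 0.18 and Klf4 at 0.12 ± 0.07. After thinning each cell to 1500 UMIs, Zfp36 alone of the 4 was called (0.40 ± 0.08), and Egr2 stood at −0.10 ± 0.36.

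Within classes, 9 pairs of member and class were higher in the high band and 0 lower (24 and 4 by DESeq2). Of these, 6 were in immature VSN-like cells, where 0.454% of all genes were higher and 0.0107% lower. Arc, at 13.9 and 12.3 CPM in the low band and 59.7 and 69.3 CPM in the high band, differed by 2.35 ± 0.48 (adjusted p = 0.00694). Nr4a1 went from 26.1 and 38.6 CPM to 95 and 130 CPM, a difference of 1.87 ± 0.33. The others were Fosb (1.48 ± 0.35), Klf4 (1.47 ± 0.28), Egr1 (1.20 ± 0.25) and Klf6 (1.02 ± 0.25), and in all 6 both libraries of the high band lay above both of the low band.

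Fos was not called there, at 419 and 366 CPM in the low and 806 and 435 CPM in the high band (0.73 ± 0.24). Btg2 gave −0.04 ± 0.19, Jun 0.10 ± 0.26 and Hspa1a −0.11 ± 0.35. The remaining 3 pairs were Klf4 in mature apical VSN-like cells (1.51 ± 0.30, where 0.203% of genes were higher and 0.112% lower), Btg2 in B-like cells (1.13 ± 0.23, where 0.0588% were higher and 0.385% lower) and Arc in endothelial-like cells (2.01 ± 0.48, where 0.62% were higher and 0.0481% lower). Btg2 stood at 280 and 247 CPM in the low and at 885 and 679 CPM in the high band of B-like cells, and Arc at 9.06 and 13.5 CPM and at 63.7 and 28.3 CPM in endothelial-like cells.

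In the other 11 classes 0 members were called in either direction by edgeR, with 16 pairs higher and 16 lower at an unadjusted p under 0.05. In gland-like cells this turned on the clusters, since at resolution 0.5 edgeR called 14 members higher and 0 lower. The share of all genes called at that resolution is not given. Depth also moved with the band in gland-like cells of the main clusters, with medians of 18732.5 UMIs in the low and 1823 UMIs in the high band. In the main fit the shares of all genes higher and lower in these 11 classes were 0.0535% and 0.00535% in basal-like cells and 0.0374% and 0.0267% in the Fezf2 cluster. They were 0.203% and 0.364% in the Krt13 cluster, 0.107% and 0.0642% in the Msln cluster and 0.0802% and 0.0535% in gland-like cells. They were 0.0214% and 0.016% in ensheathing-like, 0.674% and 0.102% in fibroblast-like and 0.396% and 0.176% in neural precursor-like cells. Among immune classes they were 0.166% and 0.016% in macrophage-like, 0.0856% and 0% in neutrophil-like and 0.0481% and 0% in T-like cells.

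Depth and other cell types moved with the band in immature VSN-like cells. Their median was 8758 UMIs in the low and 2892.5 UMIs in the high band. The 5 basal markers together stood at 119 and 168 CPM in the low band and at 288 and 502 CPM in the high band, and the sustentacular markers at 145 and 141 CPM and at 317 and 599 CPM. The neutrophil markers stood at 33.8 and 33.9 CPM in the low band and at 24.4 and 574 CPM in the high band. The immature VSN markers went from 9661 and 8657 CPM to 7625 and 7021 CPM. Without neuronal cells that held a basal marker UMI, 3 pairs were called over all classes, and of the 6 members above Nr4a1 remained, at 2.22 ± 0.45 (adjusted p = 0.015), while Egr1 stood at 1.01 ± 0.27, Arc at 1.80 ± 0.74, Fosb at 0.86 ± 0.41, Klf4 at 0.87 ± 0.40, Klf6 at 0.49 ± 0.25 and, in mature apical VSN-like cells, Klf4 at 0.69 ± 0.33. After thinning each cell to 1500 UMIs, of the 6 Arc alone was called (3.51 ± 0.65), and Nr4a1 stood at 1.92 ± 0.60, Klf4 at 1.86 ± 0.51, Egr1 at 1.09 ± 0.30, Fosb at 0.67 ± 0.35 and Klf6 at 0.37 ± 0.36. Klf4 in mature apical VSN-like cells, at 2.19 ± 0.64, and Arc in endothelial-like cells, at 0.59 ± 0.79, were not called after thinning either. The part of sustentacular and neutrophil RNA was not tested. With the library as a block, 18 pairs were higher and 2 lower.

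**Figure D4:**
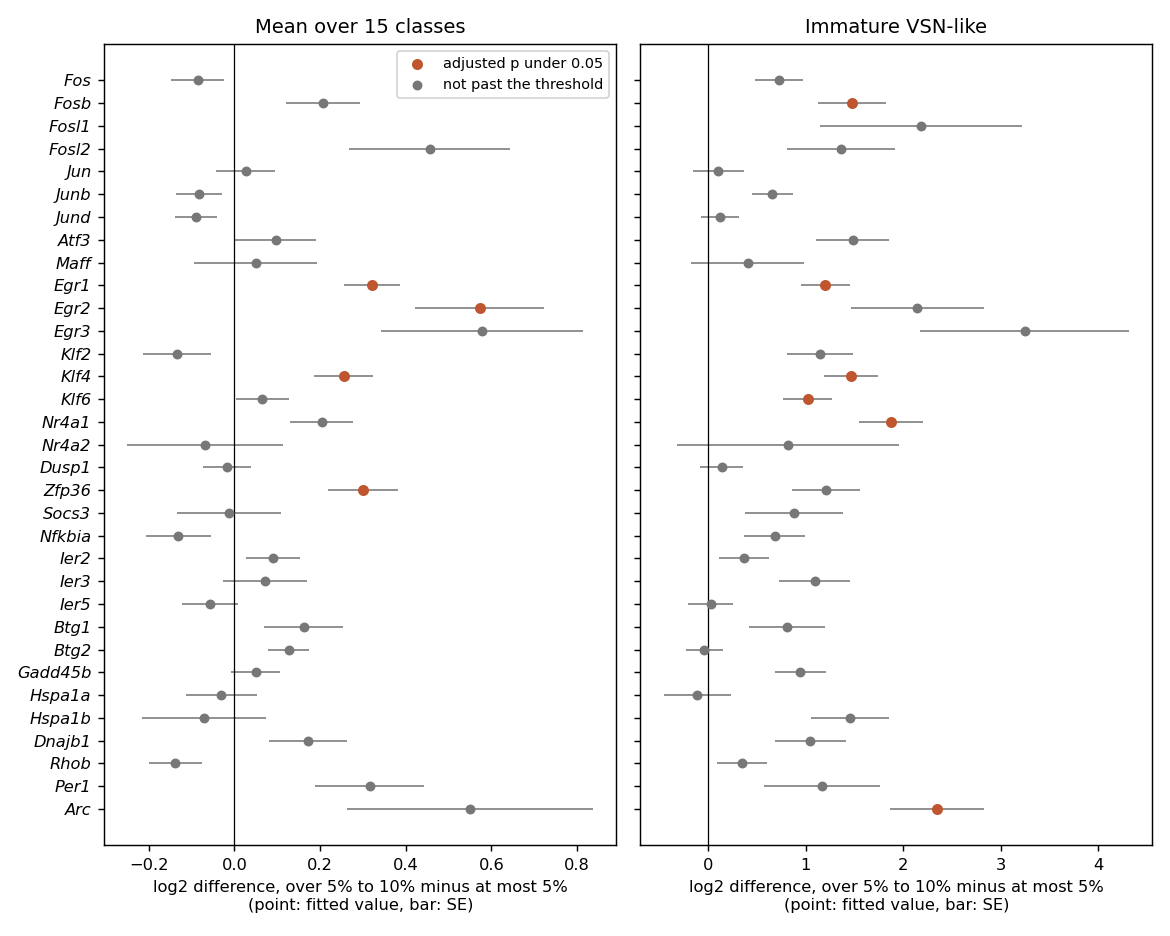
Fitted log2 difference of each member (y axis) between cells with over 5% to 10% and at most 5% mitochondrial UMIs (x axis, bars are SE), as the mean over 15 classes (left) and in immature VSN-like cells (right). Red points are past the adjusted threshold, 4 on the left and 6 on the right, the 2 panels have different scales, and Fosl1 is not drawn on the left because it has no usable error there.

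Whether the difference between bands itself differed between neuronal classes (precursor-like, immature VSN-like and mature apical VSN-like) and immune classes (macrophage-like, neutrophil-like, T-like and B-like) was tested as an interaction. Klf4 alone of the members was called, with 1.13 ± 0.22 on the log2 scale (adjusted p = 0.0224), where 0.0374% of all genes were higher and 0% lower. The difference was 1.63 in library 1 and 0.71 in library 2. It was not called without neuronal cells that held a basal marker UMI (0.69 ± 0.30) or at resolution 0.5 (1.03 ± 0.24, adjusted p = 0.125). Hspa1b gave 1.93 ± 0.42 (adjusted p = 0.0586), Egr1 0.59 ± 0.21, Fos 0.49 ± 0.19, Arc 0.71 ± 0.78, Hspa1a 0.29 ± 0.28, Jun −0.05 ± 0.20 and Btg2 −0.02 ± 0.15. Alternatives called between 0 and 7 members.

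The 2 libraries were not equal for these genes. Over the 19 classes, the median log2 ratio of library 1 to library 2 had a median of −0.26 over the members, with 6 of 33 members higher in library 1. With 1 library a side this difference has no test. Fos was among those higher in library 1 in basal-like cells (8555 against 7677 CPM), while Fosb (1799 against 2449 CPM) and Hspa1b (320 against 437 CPM) were lower there.

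Related genes outside the list were counted in the same fits. Of all genes, 25.5% were higher and 7.94% lower in basal-like cells, and 35.7% and 11.7% in mature apical VSN-like cells. The shares were 28.3% and 23.3% in precursor-like against mature cells, and 0.979% and 0.872% between the bands. Of 37 other immediate early genes tested, 29 were higher and 1 lower in basal-like cells, 2 higher and 29 lower in mature apical VSN-like cells, and 32 higher and 1 lower in precursor-like against mature cells. The heparin-binding growth factor gene Hbegf was 3.78 ± 0.17 higher in basal-like cells and 5.16 ± 0.30 higher in precursor-like than in mature cells. Between the bands, Dusp5 (0.46 ± 0.10) and Plk2 (0.31 ± 0.08) were higher and Odc1 (−0.38 ± 0.07) was lower.

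Lists of other stress genes differed among themselves, and the shares of all genes just given apply to them too. In mature apical VSN-like cells the median log2 difference was 0.55 for unfolded protein and integrated stress response genes. It was −0.02 for other heat shock genes and 0.23 for oxidative and DNA damage genes, near the 0.20 over all genes. Of 14 unfolded protein and integrated stress response genes, 8 were higher and 4 lower in mature apical VSN-like cells, and 2 were higher and 10 lower in precursor-like than in mature cells. Atf5, a factor of the integrated stress response, was 4.74 ± 0.09 higher in mature apical VSN-like cells. Between the bands 0 of these genes were higher and 3 lower, Herpud1 (−0.32 ± 0.07), Hsp90b1 (−0.29 ± 0.07) and Hspa5 (−0.28 ± 0.05). Of 14 other heat shock genes, 6 were higher and 0 lower in basal-like cells and 6 higher and 3 lower in mature apical VSN-like cells, where the small chaperone gene Hspb1 was at −2.02 ± 0.36 and Hsp90ab1, a constitutive chaperone, at 1.01 ± 0.11. Of 12 glucocorticoid and clock targets, 7 were higher and 1 lower in basal-like cells and 1 higher and 5 lower in mature apical VSN-like cells, with medians of 1.32 and −2.07, and 7 were higher and 2 lower in precursor-like than in mature cells. Of 14 oxidative and DNA damage genes, 6 were higher and 1 lower in basal-like cells and 5 higher and 3 lower in mature apical VSN-like cells, with Nqo1 at 3.76 ± 0.18.

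Members could also be ranked by how alike their levels were over the 19 classes. The nearest to Fos was Jun (Spearman 0.961), followed by Egr1 (0.923), and the farthest was Btg1 (0.196). Hspa1a was nearest to Hspa1b (0.923), Arc to Maff (0.782), Klf2 to Rhob (0.733) and Btg1 to Per1 (0.823). These values describe 19 classes that share libraries and carry no test.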

How the data were processed

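Single cell RNA-sequencing of adult mouse VNO gave 2 libraries, treated as replicates. The authors demultiplexed with bcl2fastq, aligned to mm10 and counted UMIs with Cell Ranger (version 4 per the labels), joined the libraries and analysed them in Seurat 3.2.3. The values used here are the deposited UMI counts per gene and barcode, with none of the study's cell filters applied, and no source used here gives whether joining equalised depth. Totals were 108005626 and 95442231 UMIs, and precision is limited by having 2 libraries. The near-identical copies Hspa1a and Hspa1b can exchange reads. Over all classes together, the depth of kept cells was similar in the bands, with medians of 6668 and 6650.5 UMIs at up to 5% mitochondrial UMIs and 6326 and 6563 UMIs above it. Within a class it could differ, as in gland-like and immature VSN-like cells.

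Kept barcodes had 200 to 9000 genes and up to 10% mitochondrial UMIs. They were clustered in Seurat 5.3.0 (R 4.3.3) on 1982 variable genes, 30 principal components and resolution 0.8, which gave 33 clusters. A cluster was named from at least 3 marker genes of a cell type. Doublets marked by Scrublet (368 kept cells) stayed in and were left out in an alternative. UMIs were summed by library, class and band where at least 20 cells were present, and tested with edgeR 4.0.16 (quasi-likelihood, Benjamini-Hochberg over all genes with at least 10 UMIs over the sums). TMM factors used genes with a UMI in every sum, because default factors were biased for shallow sums on simulated data. This choice was not set in advance, and no values of that bias are given here. DESeq2 1.42.0 was an alternative. Library numbers mark a capture, and the median correlation of same-numbered deviations was 0.114 over 666 pairs of sums of 3000 genes (lowest −0.19, highest 0.643). Of these pairs, 55.3% were over 0.1, so sums of a library shared deviations. The main fit had no library term, and the library as a block was an alternative. On simulated counts, log2 changes of 1 in the mean over classes were found for 90.5% of changed genes with UMIs in every group (18341 genes) and for 27.6% of those at 0 in a group. Such changes were found for 39.6% of genes with UMIs in every group between bands of basal-like cells (18361 genes) and for 38% in precursor-like against mature cells (17865 genes).

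The members and lists were chosen with earlier results of these data known. Fos, Jun, Egr1, Btg2, Hspa1a and Arc are named in every comparison, with up to 8 further members per direction that passed the threshold with 1 sign in both libraries (up to 3 for a class against the others) and up to 3 genes of each other list. Promoter sequences are from RefSeq, GRCm38.p6. 5 members had no promoter used here.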

Additional observations from a re-analysis of the deposited data

Results flagged for a closer look

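The Klf4 difference between bands was 1.13 larger on the log2 scale in neuronal than in immune classes by the interaction test, with 1.63 in library 1 and 0.71 in library 2, both above 0. It was not called without neuronal cells that held a basal marker UMI (0.69 ± 0.30) or at resolution 0.5 (1.03 ± 0.24). In immature VSN-like cells the basal markers stood at 119 and 168 CPM in the low and 288 and 502 CPM in the high band, and the sustentacular markers at 145 and 141 CPM and at 317 and 599 CPM. Barcodes with over 10% mitochondrial UMIs, which no comparison used, held 2.59% of their UMIs in the 33 genes (2.52% in library 1 and 2.67% in library 2 over 5243 barcodes), while the 121 barcodes with under 200 genes held 0.110%.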

How the results depend on the processing

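The total counts of pairs of member and class called over all classes against the others stayed within 1.5 times of the values above under every alternative run. The same held for the counts of members in precursor-like against mature cells. Counts within a single class were not compared between alternatives. The counts between bands did not, and the cause was not tested. Averaged over classes, the 4 members higher became 0 with TMM over all genes tested, 0 between the bands next to the limit, 2 with at least 500 genes a cell, 2 with the members kept in clustering, 2 after thinning, 1 without basal marker cells and 7 with no filter on low counts, and the 0 lower became 7 with TMM over all genes and 1 after thinning. Within classes, the 9 pairs higher became 24 with DESeq2, 5 between the bands next to the limit, 3 without basal marker cells, 35 with no filter, 18 with the replicate block, 22 at resolution 0.5 and 19 without doublets. The 0 pairs lower became 4 with DESeq2, 2 with TMM over all genes, 1 with at least 500 genes, 4 with no filter, 8 with only the sums compared, 2 with the replicate block and 3 after thinning. In the interaction, the 1 member called became 7 with DESeq2, 2 with RLE factors, 3 with TMM over all genes, 6 with at least 500 genes, 2 between the bands next to the limit, 2 with the members kept in clustering, 2 with mitochondrial genes left out, 0 without basal marker cells, 6 with no filter, 4 with the replicate block, 0 at resolution 0.5, 4 after thinning and 5 without doublets. The TMM over all genes and the removal of basal marker cells were chosen after the data had been seen. The main scaling, TMM over genes with a UMI in every sum, was not set in advance either.

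Thinning moved the shares of cells with a Fos UMI to 99.3% in basal-like and 32.8% in mature apical VSN-like cells. Values near 0 changed sign. The interaction of Jun (−0.05) became 0.069, 0.20, 0.32, 0.17 and 0.0465 with TMM over all genes, at least 500 genes, the bands next to the limit, members kept in clustering and thinning. That of Btg2 (−0.02) became 0.0154 with DESeq2, 0.0105 with RLE, 0.10 with TMM over all genes, 0.35 with at least 500 genes, 0.26 between the bands next to the limit, 0.28 with members kept, 0.0112 without mitochondrial genes and 0.0462 without doublets, and that of Hspa1a (0.29) became −0.0254 with at least 500 genes. In the mean over classes, Egr2 became −0.10 after thinning, Jun became −0.12, −0.0432, −0.0611 and −0.0542 with TMM over all genes, at least 500 genes, the bands next to the limit and members kept, Btg2 became −0.021 with TMM over all genes, and Hspa1a became 0.0209 with at least 500 genes, 0.0305 between the bands next to the limit, 0.0221 with members kept, 0.0663 after thinning and 0.11 without doublets. Leaving out a library leaves no residual degrees of freedom, so only the values of each library are given, with no test. Genes with few UMIs in a class, such as Fosl1, Egr3 and Arc, are limited by depth.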

Other observations

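The clusters without a class differed in the share of UMIs from the 33 genes. Cluster 2 gave 2.27% and 2.28% in the 2 libraries at a median of 876 UMIs a cell, and cluster 5, at 775 UMIs, gave 0.711% and 0.894%. Cluster 4, at a median of 36024 UMIs, gave 1.77% and 1.82%, and cluster 29 gave 2.07% and 2.24%. Cluster 13 gave 1.65% and 1.26%. Cluster 11, found almost wholly in library 1, gave 2.43% there, with Hspa1a at 601 CPM.

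Among the classes too small for the fits at up to 5% mitochondrial UMIs, mural-like cells gave 3.05% and 2.29% (12 and 7 cells), ciliated-like cells 1.78% and 1.62% (16 and 18 cells), and tuft-like cells 0.955% and 2.39% (4 cells in each library). In the interaction test the unfolded protein response factor gene Xbp1, which is no member, gave 1.36 ± 0.25 (edgeR, adjusted p = 0.00637).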
